A study of Homo sapiens with 2 samples.

Results

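The genes described here encode the scaffolds and kinases of the beta-catenin destruction complex (APC, APC2, AXIN1, AXIN2, GSK3A and GSK3B) and 4 F-box proteins (BTRC, FBXW11, FBXW2 and SHFM3, which is now named FBXW4). They were taken by symbol from the list of 113 pathway genes on a human Wnt signalling membrane array, and all 10 were found there, at spots 3 to 6 (APC, APC2, AXIN1 and AXIN2), 8 (BTRC), 37 (FBXW11), 38 (FBXW2), 56 (GSK3A), 57 (GSK3B) and 82 (SHFM3). RNA came from SW480, a human colorectal adenocarcinoma line. The hiNOS group overexpressed hiNOS, the human inducible nitric oxide synthase, together with green fluorescent protein (GFP), and the GFP group was the empty vector control with GFP only. Both were stable lines sorted for GFP and grown for several weeks, and whether either came from a single clone is not given in the sources used here. The series text speaks of 3 separate RNA samples assayed more than once, whereas the files analysed here give 1 array for each group, and how these relate to those samples is not given. With 1 array for each group, no difference below has a replicate or a p-value, and every value describes these 2 membranes.

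In cells without a Wnt signal, the scaffolds AXIN and APC hold beta-catenin beside the kinase GSK3 and casein kinase 1, which phosphorylate it. The F-box proteins BTRC (beta-TrCP1) and FBXW11 (beta-TrCP2) recognise the phosphorylated form and bring it to a ubiquitin ligase, and the proteasome then destroys it. Loss of this control is a hallmark of colorectal cancer, and SW480 is known for a truncated APC protein and stable beta-catenin. AXIN2 is itself a transcriptional target of beta-catenin and TCF, and serves as a negative feedback arm of the pathway.

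Spot density, the deposited measure, is an average brightness in scanner units from which no background had been removed. The 2 blank spots averaged 12336 units on the hiNOS array and 12750 on the GFP array, and the 6 negative-control spots (blanks, plasmid and artificial sequences) ran from 11408 to 13214 with hiNOS and from 11986 to 12779 with GFP. The dimmest gene that the authors' software called present had 18525 units with hiNOS and 18982 with GFP. The biotinylated positive control averaged 49565 and 50047 units, and spots at 90% of it or more are called near the ceiling here. Of 15 fixed genes (colon epithelial markers, markers of other cell types, and NOS2, which encodes the overexpressed enzyme), 0 were on the array, so neither the identity of the line nor the overexpression could be checked.

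Of the 5 genes with a ratio, APC2 was the only one beyond 2-fold between the arrays once background was subtracted, and it was lower with hiNOS (19254 units of density, against 37643 with GFP). Both AXIN genes, GSK3A and FBXW11 were called present on both arrays, and their densities differed by at most 1078 units. APC, GSK3B, BTRC, FBXW2 and SHFM3 were called absent on both. Thus 5 of the 10 were present on both arrays and 5 on neither, beside 39.8% and 47.8% of all 113 genes. No gene of the group was present on 1 array alone.

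**Figure D1:**
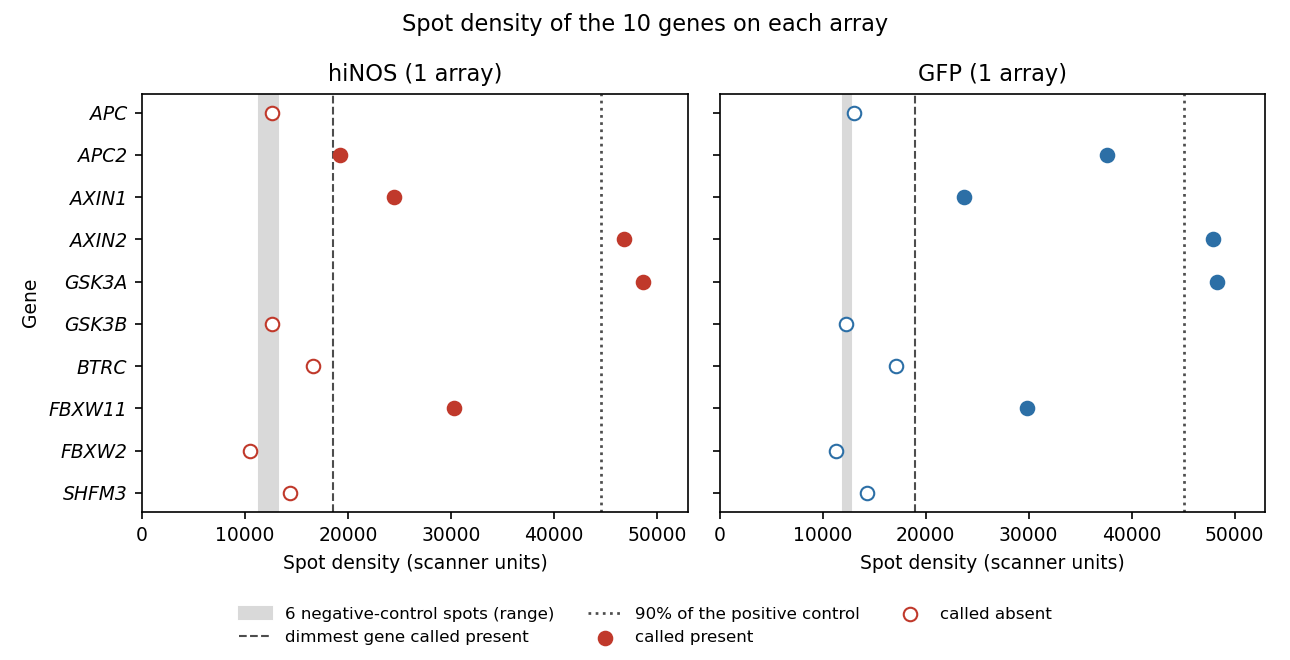
Spot density in scanner units (x axis) of the 10 genes (rows) on the hiNOS array and on the GFP array, 1 array each. Grey bands show the range of the negative controls, dashed lines the dimmest gene called present, and dotted lines 90% of the positive control; APC2 is the only gene that differs by more than 1256 units between the panels, at 19254 units with hiNOS and 37643 with GFP.

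APC encodes the tumour suppressor that is mutated in most colorectal cancers, and APC2 encodes a homolog of it best known from the nervous system. The spot of APC2 had a density of 19254 units on the hiNOS array and 37643 on the GFP array. It was rank 50 of 113 genes by density with hiNOS and rank 26 with GFP, and with hiNOS it lay 728 units above the dimmest gene called present. The density was 18389.8 units lower with hiNOS, the largest fall of any of the 113 genes, the next being 14885 units for TLE4, a corepressor gene.

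Where background adds a similar amount to every spot, a ratio of densities understates a difference, and the blank mean was therefore subtracted first. Some spots were dimmer than the blanks, however, such as FBXW2 at 10508 units with hiNOS, against a blank mean of 12336. Where the blank mean exceeds the background of a spot, subtraction overstates its difference. Each array was then scaled to its own 3 spots of GAPDH and ACTB, the reference genes that the series text names. On that scale APC2 stood at 19.0% of GAPDH and ACTB with hiNOS and at 68.7% with GFP, which is 3.62-fold lower with hiNOS (log2 ratio -1.85). The GAPDH and ACTB spots were themselves near the ceiling, with mean densities of 48775 units with hiNOS and 49004 with GFP, and whether the scaling would register a difference in loading was not tested. Scaled to the middle 50% of all spots instead, APC2 had a log2 ratio of -1.77. From density alone it was 1.95-fold lower (log2 ratio -0.96), short of a 2-fold rule that 0% of the genes passed on that scale. The authors' deposited table lists APC2 among the under-expressed genes at a ratio of 0.293, hiNOS over GFP, computed from these same densities. The ratio of APC2 was the lowest of the 45 genes present on both arrays, followed by CSNK1A1 at -1.15. That rank leaves out genes absent on 1 array. Several genes called absent with hiNOS had a measured log2 ratio lower than that of APC2, among them TLE4 and PPP2CA (-1.91). RNA was taken from whole cultures, so less signal in every cell and loss of signal in some cells cannot be told apart.

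By the 2-fold rule after blank subtraction, 1 of the 5 genes of the group with a ratio was lower and 0 were higher. Of the 59 pathway genes present on at least 1 array, 10.2% were 2-fold lower and 5.08% were 2-fold higher, with genes absent on 1 array held at a lower bound of their change. Among the 45 present on both arrays, as all 5 were, 6.67% were 2-fold lower. A share of 1 in 5 rests on APC2 alone. The median log2 ratio of the 5 was 0.02, beside -0.01 over the 59 genes.

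The spot of APC was close to background on both arrays. Its density was 12622 units with hiNOS, within the range of the negative controls, and 13050 with GFP, 1.02 times the brightest negative control of that array. Both were called absent, so no ratio is given, and a difference between the homologs in their response cannot be had from these values. Different spots carry different probes, and a dimmer spot does not show that APC had less RNA than APC2.

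AXIN1, the constitutive scaffold of the complex, had 24444 units with hiNOS and 23687 with GFP. After subtraction it stood at 33.2% of GAPDH and ACTB with hiNOS and at 30.2% with GFP, a log2 ratio of 0.14. It lies in the part of the scale between background and ceiling, where 23 genes were found on both arrays, with log2 ratios from -1.85 (APC2) to 1.05. By the size of its log2 ratio AXIN1 was the 6th smallest of these 23, whose median size was 0.26.

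AXIN2, the feedback scaffold, had 46845 units with hiNOS and 47923 with GFP, or 94.5% and 95.8% of the positive control. Its log2 ratio was -0.03. Both spots were near the ceiling, along with those of 18 other genes, and the log2 ratios of these 19 genes ran only from -0.07 to 0.08. Whether a spot this bright could register a difference was not tested, so the AXIN2 value does not show equal RNA. AXIN2 minus AXIN1 was -0.17 as a difference of log2 ratios; of the pair, AXIN1 was the one with a spot between background and ceiling.

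Of the paralogous kinase genes, GSK3A was near the ceiling and GSK3B at background. GSK3A had 48666 units with hiNOS and 48287 with GFP, 96.5% or more of the positive control, and a log2 ratio of 0.02. It was the only gene of the group called bleeding, on both arrays, the software's term for a bright spot within 30% of its own local background. GSK3B, the paralog with the same role towards beta-catenin, had 12586 units with hiNOS and 12293 with GFP, inside the range of the negative controls on both arrays. The authors' deposited table nevertheless lists GSK3B among the under-expressed genes, marked as absent in both groups, at a ratio of -0.576. That value is negative because GSK3B lay 250 units above the blanks with hiNOS and 457 units below them with GFP, so the spot was brighter with hiNOS by 293 units, and it carries no fold.

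Of the beta-TrCP pair, FBXW11 was the one called present. It had 30297 units with hiNOS and 29826 with GFP, at 49.3% and 47.1% of GAPDH and ACTB after subtraction, with a log2 ratio of 0.07. This was the 2nd smallest of the 23 genes between background and ceiling. BTRC was called absent but was not at the level of the blanks. Its density of 16576 units with hiNOS was 1.25 times the brightest negative control there, and its 17076 units with GFP were 1.34 times the brightest one on that array. It fell short of the dimmest gene called present by 1949 units with hiNOS and by 1906 with GFP, and its own density differed by only 499.7 units between the arrays.

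SHFM3 and FBXW2 were also called absent on both arrays. SHFM3 (FBXW4), an F-box and WD-repeat gene named for a limb malformation locus, had 14363 units with hiNOS and 14271 with GFP, 1.09 and 1.12 times the brightest negative control. FBXW2, which also encodes an F-box and WD-repeat protein, had 10508 units with hiNOS, the lowest of all 128 spots of that array, and 11287 with GFP. Both FBXW2 values were under the lowest negative control, so this spot gives no sign of a signal. The authors' table lists neither gene.

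A few sequences were spotted more than once, and the distance between such duplicates is the only repeat measurement in these files. The 4 duplicated sequences (blank, ACTB, HSPCB and the positive control) gave 8 gaps over the 2 arrays, from 57 to 1256 units, and the widest was between the blanks of the hiNOS array. The differences between arrays of APC, AXIN1, AXIN2, GSK3A, GSK3B, BTRC, FBXW11, FBXW2 and SHFM3 lay between 93 and 1078 units in size, all narrower than that gap, and APC2 alone exceeded it. The 6 gaps between bright duplicates, however, ran only from 399.8 to 835 units, and AXIN2, which is about as bright, differed by more than each of them. Among the 113 pathway genes 44.2% differed by more than 1256 units, 29.2% lower and 15% higher with hiNOS. Duplicates were either at background or near the ceiling, so the scatter of spots as bright as AXIN1 or FBXW11 is unknown, as is that between cultures.

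**Figure D2:**
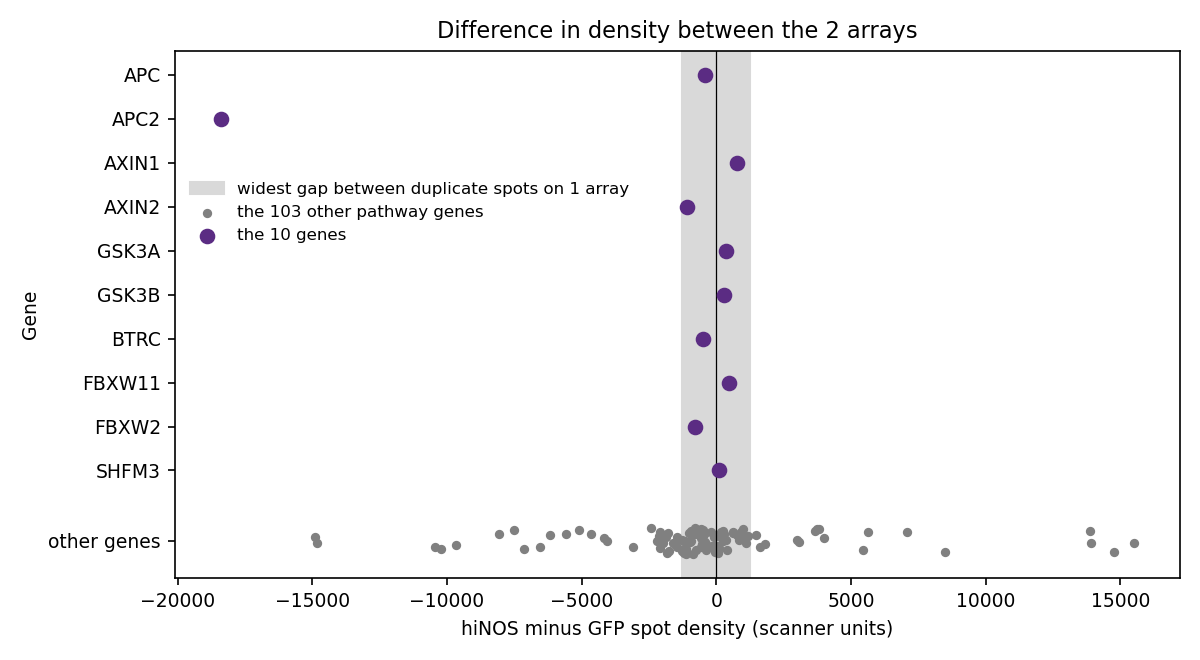
Spot density on the hiNOS array minus that on the GFP array, in scanner units (x axis), for the 10 genes (rows) and for the other pathway genes (bottom row, points spread vertically for legibility). The grey band is the widest gap between duplicate spots, 1256 units; APC2 at -18389.8 lies outside it and the other points of the group lie inside.

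The partners of these proteins were described from a list of the kinases, phosphatase subunits, binding proteins and ligase subunits of the complex and its substrate, of which 26 were on the array and 17 were present on at least 1 array. None of the listed ligase subunits was on the array. After blank subtraction 3 of the 17 were 2-fold higher with hiNOS and 2 were 2-fold lower, beside 5.08% and 10.2% of the 59 genes present on at least 1 array. The 3 higher genes of the list were all of the genes that passed 2-fold higher among the 59. The median log2 ratio of the 17 was 0.01, and 4 of the 17 were near the ceiling on both arrays. NKD2, at 48173 units with hiNOS and 34302 with GFP, was near it on the hiNOS array only. The higher genes were CTNNBIP1, an inhibitor of beta-catenin and TCF binding (at least 2.67-fold), NKD1, a Dishevelled-binding antagonist (2.07-fold), and CSNK1D, a casein kinase 1 gene (2.04-fold). The lower genes were CSNK1A1, whose product primes beta-catenin for GSK3 (2.21-fold), and CSNK2A2, a catalytic subunit of casein kinase 2 (at least 2.39-fold). From density alone 0 of these 5 passed. The casein kinase 1 genes CSNK1A1 and CSNK1D thus passed the rule in opposite directions after blank subtraction.

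CTNNB1, which encodes beta-catenin, the substrate, had 22673 units with hiNOS and 17226 with GFP, where it was called absent. Its ratio is bounded at 1.65-fold higher or more after subtraction and at 1.20-fold or more from density, and the measured ratio after subtraction was 2.30-fold, so that whether it passes 2-fold is not settled by the bound. PPP2CA, a catalytic subunit of the phosphatase PP2A, was called absent with hiNOS and was at least 1.36-fold lower. Its measured log2 ratio after subtraction was -1.91, so whether it passes 2-fold is not settled by the bound either. The same holds for 2-fold higher with CSNK1A1L and CSNK1G1, both called absent with GFP. CSNK1A1L was at least 1.42-fold higher and measured 3.12-fold, while CSNK1G1 had no bound above 1-fold and measured 2.22-fold. The GSK3-binding genes FRAT1 and FRAT2 were absent on both arrays, FRAT2 at 12557 units with hiNOS and 16726 with GFP, and so was SENP2, whose product binds AXIN.

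**Figure D3:**
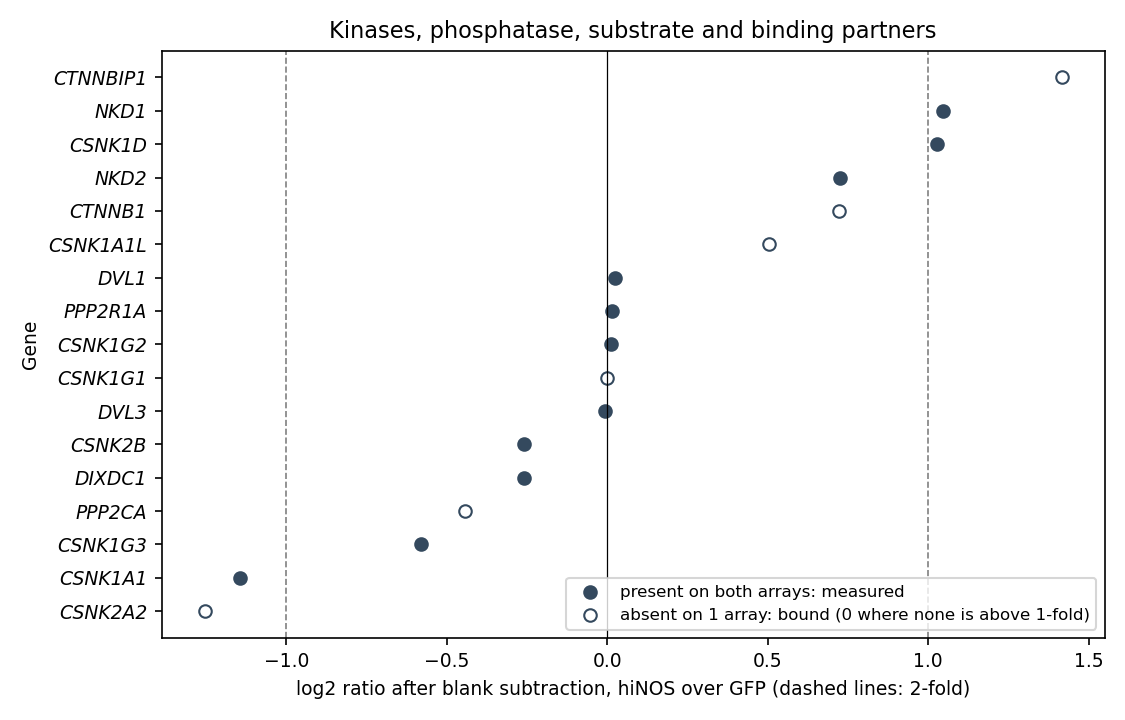
Log2 ratio of hiNOS over GFP after blank subtraction (x axis) for the 17 listed partners present on at least 1 array, ordered by value. Filled points are measured ratios and open points are bounds for genes absent on 1 array; CTNNBIP1, NKD1 and CSNK1D lie above the upper 2-fold line, and CSNK1A1 and CSNK2A2 below the lower one.

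The size of the APC2 difference depended on how background was removed. Its ratio was 4.04-fold lower with the brightest negative control subtracted and 3.09-fold lower with the lowest spot subtracted, while the other 4 genes with a ratio stayed within 1.5-fold in each of the 12 settings in the plot. The sign for AXIN2 turned between scalings, at -0.03 with GAPDH and ACTB and 0.05 with scaling to the middle 50% of all spots, and no direction is given for it.

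**Figure D4:**
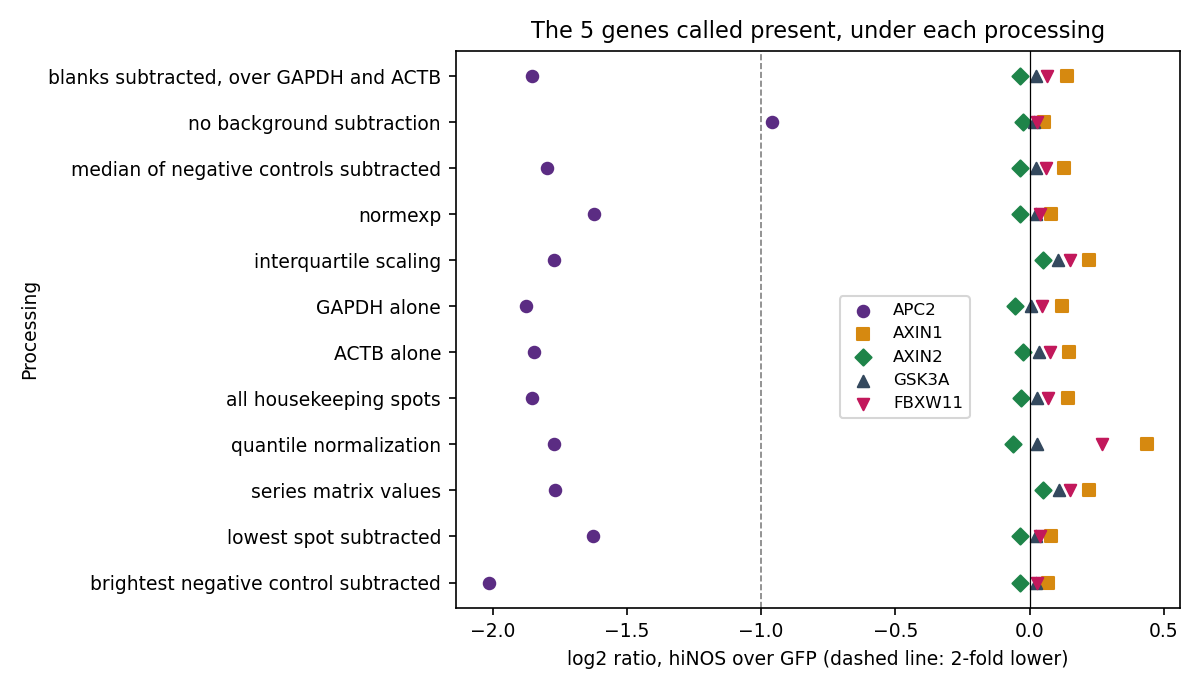
Log2 ratio of hiNOS over GFP (x axis) of the 5 genes called present on both arrays under 12 ways of removing background and scaling (rows). APC2 lies left of 0 in every row, and left of the dashed 2-fold line in every row except that without background subtraction, where it is at -0.96; the other 4 genes lie between -0.06 and 0.44.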

How the data were processed

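Biotin-labelled cRNA of 2 SW480 lines was hybridised to 1 membrane array each. Per the series text, GEArray Expression Analysis Suite 2.0 turned the scans into densities. Per the file headers, the deposited intensity of each of 128 spots is its average density with the Clover setting off. A second deposited intensity table was recomputed as density minus the blank mean, scaled to the middle 50% of spots on average, to within 0.005 for 228 values. Its scale is linear and it is not centred. The authors' deposited list of genes beyond 2-fold, per the file headers relative to blank spots 116 and 117, was read as a score because some of its values are negative. A spot was called absent by the authors' software, per the file headers, if its density fell short of 1.5 times an average of local backgrounds (those up to the 75th percentile, bleeding spots left out).

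From the densities the blank mean was subtracted, each array was scaled to its 3 GAPDH and ACTB spots, and log2 ratios were formed with hiNOS on top (Python 3.11.15, pandas 2.3.3; normexp with limma 3.58.1). Genes absent on both arrays received no ratio. Genes absent on 1 array received a bound: the bright value was divided by the dim one, or by the dimmest gene called present on the dim array if that was higher. All 10 genes are named, and of the partner list CTNNB1 and each gene beyond 2-fold. PPP2CA, CSNK1A1L, CSNK1G1, NKD2, FRAT1, FRAT2 and SENP2 of that list, and TLE4, were named after their values were seen. The 10 genes, the lists and the settings were chosen with earlier results of these data known, and the comparison with duplicate spots was added after the data were seen. RefSeq accessions gave current symbols for all 10 genes. The script was tested on simulated arrays that had no noise and no ceiling. That test checks the arithmetic of the ratios and does not bear on how well these spots measure RNA. Probe sequences were not used here, so cross-hybridisation between paralogs cannot be judged, and the number of arrays, 1 per group, limits the precision and allows no test.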

Additional observations from a re-analysis of the deposited data

How the results depend on the processing

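APC2 was 2-fold lower with hiNOS under every setting except that without background subtraction, where 0 of the 5 genes with a ratio were 2-fold lower. Under no setting was any gene of the group with a ratio 2-fold higher. A ratio was had for 5 of the 10 genes under most settings. It was had for 8 without a filter on dim spots and with detection by the brightest negative control, and for 3 without spots near the ceiling. Background that stays in both values compresses their ratio by construction. The median log2 ratio of the 5 genes present was 0.11 with interquartile scaling and 0.11 with the series matrix values. Over all 59 genes the median was 0.07 under each of these settings, beside -0.01 as reported, so the shift was not particular to the group. AXIN2 minus AXIN1 was -0.078 without background subtraction and -0.50 with quantile normalization, where the cause was not tested. The other counts did not change, and the other medians and differences moved by less than 0.082, the SD of the log2 density ratio over the negative controls. That SD is of single spots without background subtraction, so it serves as a cut-off only and does not measure the error of these values. Counts over all genes with a ratio differed more: 3 higher and 6 lower as reported, 0 and 0 without subtraction, 1 and 4 with normexp, 5 and 3 with quantile normalization, 2 and 3 over genes present on both arrays, 10 and 15 without a filter on dim spots, 10 and 13 with detection by the brightest negative control, 6 and 10 with a 1.5-fold rule, and 6 and 11 with measured ratios in place of bounds. Subtraction of the lowest spot or of the brightest negative control was chosen after seeing the data. No paired analysis was possible because only 1 array stands for each line, and for the same reason no replicate could be left out. Signal over background limits APC, GSK3B, BTRC, FBXW2 and SHFM3, and the ceiling limits AXIN2, GSK3A and the GAPDH and ACTB spots used for scaling.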
